A study of Homo sapiens with 9 samples.

Results

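The mRNAs of FGF2, of 3 other fibroblast growth factors, of the 4 FGF receptors and of 2 Sprouty inhibitors were followed in vesicles released by H9 cells, a widely used line of human embryonic stem cells (hESCs). Every probe set that the array annotation assigns to FGF2, FGF4, FGF8, FGF13, FGFR1, FGFR2, FGFR3, FGFR4, SPRY2 or SPRY4 was taken, which gave 32 probe sets of 10 genes among 54675 probe sets on the array. A probe set is a group of short oligonucleotides that together give 1 signal for a transcript. FGFR1 had 7 of them, FGFR2 had 11, FGFR4 had 4, FGF2, FGF4 and FGFR3 had 2 each, and FGF8, FGF13, SPRY2 and SPRY4 had 1 each.

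Total RNA of microvesicles (MVs), of exosomes (EXOs) and of non-fractionated extracellular vesicles (hESEVs) was hybridized to 9 Affymetrix HG-U133 Plus 2.0 arrays, 3 per vesicle type. Cells and debris were first removed at 300g and 2800g. The supernatant was spun at 16500g for 1 hour to collect MVs, and what remained at 120000g for 2 hours to collect EXOs. For hESEVs the labels give 120000g for 2 hours with 300g as the only spin before it. The sources differ in part on these spins, for hESEVs and for the first spin of MVs. All vesicles came from untreated cultures of this 1 line, grown without serum or feeder cells in mTeSR1 medium on Matrigel, so no other line, and no RNA of the cells themselves, stands beside them.

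Fibroblast growth factors bind receptor tyrosine kinases at the cell surface together with heparan sulfate, and the receptors signal through the adaptor FRS2 to RAS and the MAP kinases. Sprouty proteins are switched on by the pathway and dampen it. FGF2 is best known in this setting as the factor that keeps hESCs undifferentiated, and mTeSR1 supplies it as a recombinant protein, which an RNA array does not measure. FGF4 is made by pluripotent cells themselves, FGF8 acts in the gastrulating embryo, and FGF13 belongs to a branch that stays inside the cell and binds sodium channels and microtubules.

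The values are MAS5 signals on a linear scale, each array scaled by the authors to the same target, with signals under 32 raised to 32 before log2 was taken. The array median ranged over 358 to 365 (MVs), 422 to 429.7 (EXOs) and 415 to 421 (hESEVs). Of 14 measured markers of hESCs, among them SOX2, NANOG and LIN28A, each read with its probe set of highest mean, 12 lay above the background level for such probe sets in MVs (920.3), 3 in EXOs (1329) and 10 in hESEVs (1205). Against the lower level set over all probe sets and defined below, these counts were 12, 6 and 10. In the test, 11 were higher in MVs against EXOs. Summed over those markers, the MVs arrays had 78102 to 81209, the EXOs arrays 16492 to 19366 and the hESEVs arrays 24126 to 26572. The 19 measured markers of differentiated lineages summed to 7524 to 8025 (MVs), 12582 to 12876 (EXOs) and 9370 to 10801 (hESEVs), with 0 higher and 3 lower in MVs than in EXOs. Only 2 of the 19 lay above the background level in MVs, 2 in EXOs and 2 in hESEVs. The 59 measured tissue-restricted genes, which set that level, shifted the same way. They summed to 25123 to 28562.5 (MVs), 35516 to 39013 (EXOs) and 34035 to 35535 (hESEVs), with 2 higher and 3 lower in MVs than in EXOs. More RNA of differentiated lineages in EXOs is thus not read from these sums. No defining marker of hESCs was listed at 0. The ratio of the 3′ to the 5′ control probe set of GAPDH, a measure of how complete the copied RNA is, was 2.88 to 2.90 (MVs), 1.39 to 1.71 (EXOs) and 1.89 to 2.22 (hESEVs), and that of ACTB was 22.5 to 25.2, 5.64 to 6.80 and 8.48 to 10.2 in the same order. In EXOs the 5′ signals of ACTB (642 to 806) lay under the EXOs background level given below, so that this ratio is uncertain there. In the paper's electrophoresis the RNA of MVs was much longer than that of EXOs, so the ratios are not read as an order of completeness. The part of these shifts in the results below was not tested. In pooled vesicle RNA, fewer vesicles with a transcript and less of it per vesicle cannot be told apart.

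The background level used here is the 90th percentile of the mean signal over 130 probe sets of tissue-restricted genes, which was 841 in MVs, 1109 in EXOs and 1074 in hESEVs. Of the 32 probe sets, 6 had a mean above it in MVs, 3 in EXOs and 3 in hESEVs, against 15.8%, 8.96% and 9.71% of all probe sets. The 6 in MVs were the probe set of FGF13, 3 of FGFR1, 1 of FGFR2 and 1 of FGFR4. In EXOs they were 2 of FGFR1 and 1 of FGFR2, and in hESEVs 2 of FGFR1 and 1 of FGF4. Neither probe set of FGF2 reached the level in any vesicle type.

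The first comparison asked whether these mRNAs differ between MVs and EXOs. FGF13, FGFR4 and FGFR2 each had 1 probe set that was higher in MVs, and the other 29 probe sets did not pass the test. A probe set was called at an adjusted p under 0.05 (limma with Benjamini-Hochberg adjustment over all 54613 probe sets other than controls, two-sided) together with a change of 2-fold or more. Thus 3 of 32, or 9.38%, were higher in MVs and 0 lower, where 7.23% of all probe sets were higher and 1.97% lower (9.20% in either direction), so that the share of the FGF genes was near the background. Without adjustment, 8 of the 32 had a limma p under 0.05. The share of all probe sets under that p was not counted, so nothing is read from the 8. With the methods' t-test without adjustment and 2-fold, 4 of the 32 were higher and 0 lower. The same test called 4692 higher and 2650 lower of all 54613 probe sets. The median log2 fold change, MVs minus EXOs, was -0.09 over the 32 and -0.29 over all probe sets, and with median centring these were 0.15 and -0.06.

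**Figure D1:**
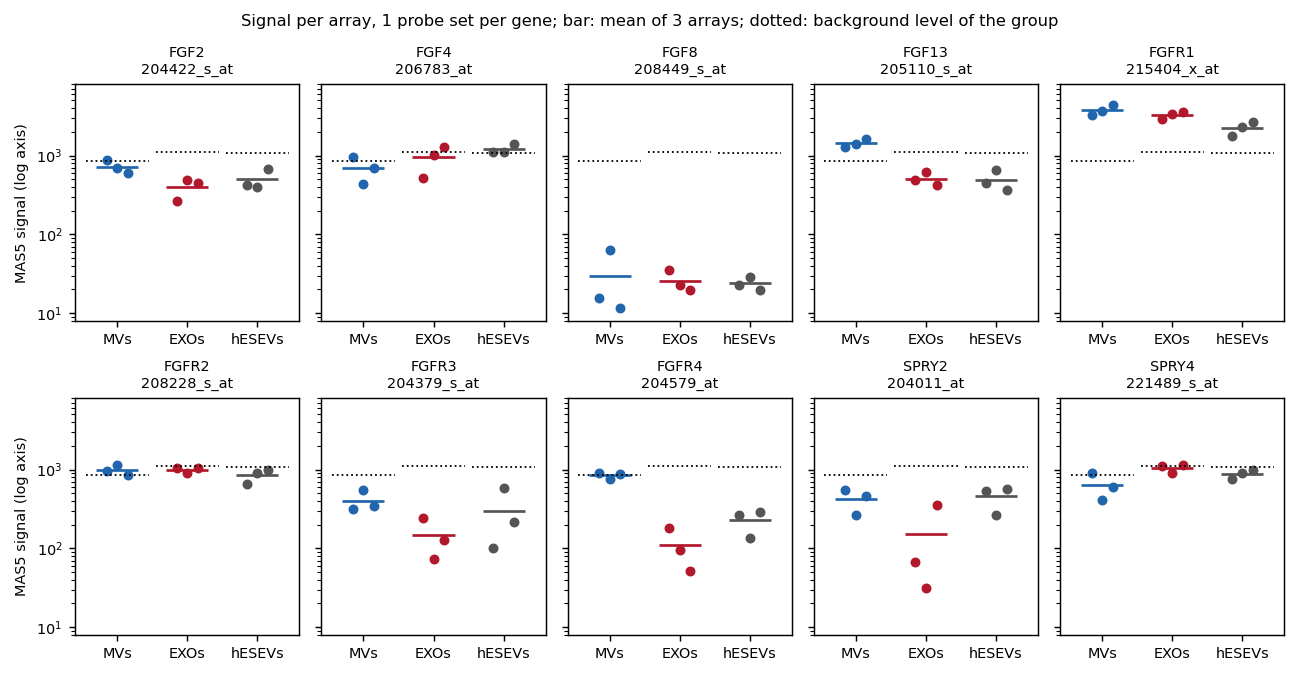
MAS5 signal (log axis) on each array for 1 probe set per gene, the one with the highest mean, with MVs, EXOs and hESEVs from left to right. Points are arrays, bars are means of 3 arrays and dotted lines are the background level of each group. The MVs arrays of FGF13 (1289.8 to 1635) and FGFR4 (748 to 906) lie above all arrays of EXOs and hESEVs, while the arrays of FGFR1 from MVs and EXOs overlap.

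Among the ligands, FGF13 (probe set 205110_s_at, gene ID 2258) gave the clearest difference. Its signal was 1289.8, 1410.2 and 1635 in MVs, against 496, 611 and 418 in EXOs and 451, 651 and 371 in hESEVs. All 3 MVs arrays lay above the background level and above every other array. Its level in MVs was 2.86-fold that in EXOs (1445 ± 175 against 508 ± 96.7, mean ± SD, n = 3 each), a log2 fold change of 1.52 with a standard error of 0.20 (adjusted p = 0.0022 from limma). The EXOs mean lay under the EXOs background level of 1109, so that the size of the fold is uncertain. This call was kept when any single array was left out (1.39 to 1.66). From high to low, the group means ran MVs, EXOs, hESEVs, and the ranges of EXOs and hESEVs overlapped.

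FGF2 (probe set 204422_s_at, gene ID 2247) had 867, 686 and 596 in MVs, 262, 485 and 444 in EXOs, and 424, 396 and 674 in hESEVs. The 3 MVs arrays lay above the 3 EXOs arrays, with the nearest values 485 and 596. The log2 fold change was 0.88 (standard error 0.32, 95% interval 0.13 to 1.64), which missed the threshold (adjusted p = 0.12). The second FGF2 probe set, 204421_s_at, had 396, 862 and 448 in MVs, 53.0, 624 and 789 in EXOs, and 534, 728 and 865 in hESEVs. There EXOs replicate 1 stood far under the other EXOs arrays, the groups overlapped, and the difference of 0.85 carried an interval of -1.43 to 3.13 (adjusted p = 0.61). For 204422_s_at the means ran MVs, hESEVs, EXOs from high to low, with overlap between neighbours.

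FGF4 (gene ID 2249), in contrast, had both log2 differences under 0, and neither passed the test. Probe set 206783_at had 959, 433 and 706 in MVs, 523, 1029 and 1299 in EXOs, and 1113, 1107 and 1413 in hESEVs (MVs minus EXOs -0.42, adjusted p = 0.54). The hESEVs arrays were all above the MVs arrays and overlapped with EXOs. Probe set 1552982_a_at had 411, 150.2 and 321 in MVs, 257, 1224 and 828 in EXOs, and 112, 827 and 915 in hESEVs (-1.24, adjusted p = 0.25), with overlap throughout. FGF8 (208449_s_at) was 15.6, 62.4 and 11.8 in MVs, 35.0, 23.0 and 19.5 in EXOs, and 22.9, 29.2 and 19.5 in hESEVs. Nearly all of these lie under 32, so that neither a fold nor a direction is read for FGF8.

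The 24 receptor probe sets had a median log2 fold change of -0.16, MVs minus EXOs. Of these, 2 were higher in MVs and 22 did not pass the test. The arrays of the groups did not overlap for 4 of them, with MVs above EXOs in 3 and below in 1. Over all 32 probe sets, MVs lay above EXOs without overlap in 5 (15.6%, against 13.3% of all probe sets) and below in 2 (6.25%, against 21.7%).

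FGFR1 (gene ID 2260), a receptor for FGF2, had no probe set that passed the test. Its probe set with the highest mean, 215404_x_at, had 3257, 3698 and 4396 in MVs, 2909, 3366 and 3521 in EXOs, and 1767, 2282 and 2665 in hESEVs. All 9 arrays were above the background level, and MVs and EXOs overlapped. The mean was 3784 ± 574 in MVs and 3265 ± 318 in EXOs, and the 95% interval of the log2 difference, -0.11 to 0.52, lay inside 2-fold (0.21, standard error 0.14, adjusted p = 0.36). That direction depended on the scaling: with quantile normalization the value was -1.08, called lower in MVs (adjusted p = 0.0015). The suffix _x_at marks probe sets with oligonucleotides that can also match other transcripts, so this signal may not come from FGFR1 alone.

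The other FGFR1 probe sets did not move together. The log2 differences of all 7 ran from -0.76 to 0.89, with 4 under 0 and 3 above, their arrays overlapped in each case, and 5 of the 7 intervals lay inside 2-fold. Among these 5, probe sets 222164_at, 210973_s_at and 207822_at had means under the background level in all vesicle types. Probe set 226705_at had 831, 1027 and 1306 in MVs, against 846, 791 and 263 in EXOs, where EXOs replicate 3 was far under the rest. Probe set 207937_x_at went the other way, with 907, 547 and 504 in MVs and 1077, 897 and 1261 in EXOs (-0.76, adjusted p = 0.11), and was called lower in MVs without MVs replicate 1 (-1.02). A shared behaviour of FGFR1 mRNA beyond the spread of the arrays was thus not detectable.

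FGFR2 (gene ID 2263) had 1 probe set with a large difference and 10 without. Probe set 203638_s_at had 289, 583 and 729.9 in MVs, 33.0, 118 and 81.4 in EXOs, and 55.7, 29.2 and 75.6 in hESEVs. Each MVs array was above every array of the other vesicles. The log2 fold change, MVs minus EXOs, was 2.86 (7.28-fold, standard error 0.70, adjusted p = 0.038). Its mean in MVs, 534 ± 225, lay under the MVs background level of 841 and its mean in EXOs far under that of EXOs, so that the size of the fold is uncertain, and the call was lost without any of MVs replicates 1, 2 and 3 (3.26, 2.75 and 2.59), without EXOs replicate 1 (2.34) and without EXOs replicate 3 (2.99).

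Of the remaining FGFR2 probe sets, 208228_s_at had 953, 1126 and 851 in MVs, 1051, 906 and 1041 in EXOs, and 657, 916 and 988 in hESEVs, a difference of -0.04 between MVs and EXOs with an interval of -0.43 to 0.35. This sign turned to 0.19 with median centring and to 0.055 without MVs replicate 3. Probe set 211398_at was 819, 635 and 607 in MVs, against 882, 1142 and 1461 in EXOs and 691, 806 and 712 in hESEVs. EXOs did not overlap with either, but the difference of -0.74 did not pass (adjusted p = 0.082). The other 8 had group means between 44.2 and 299, under the background level in all vesicles. FGFR2 is spliced into variants with different ligand preference, and which variant each probe set reads was not traced here.

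**Figure D2:**
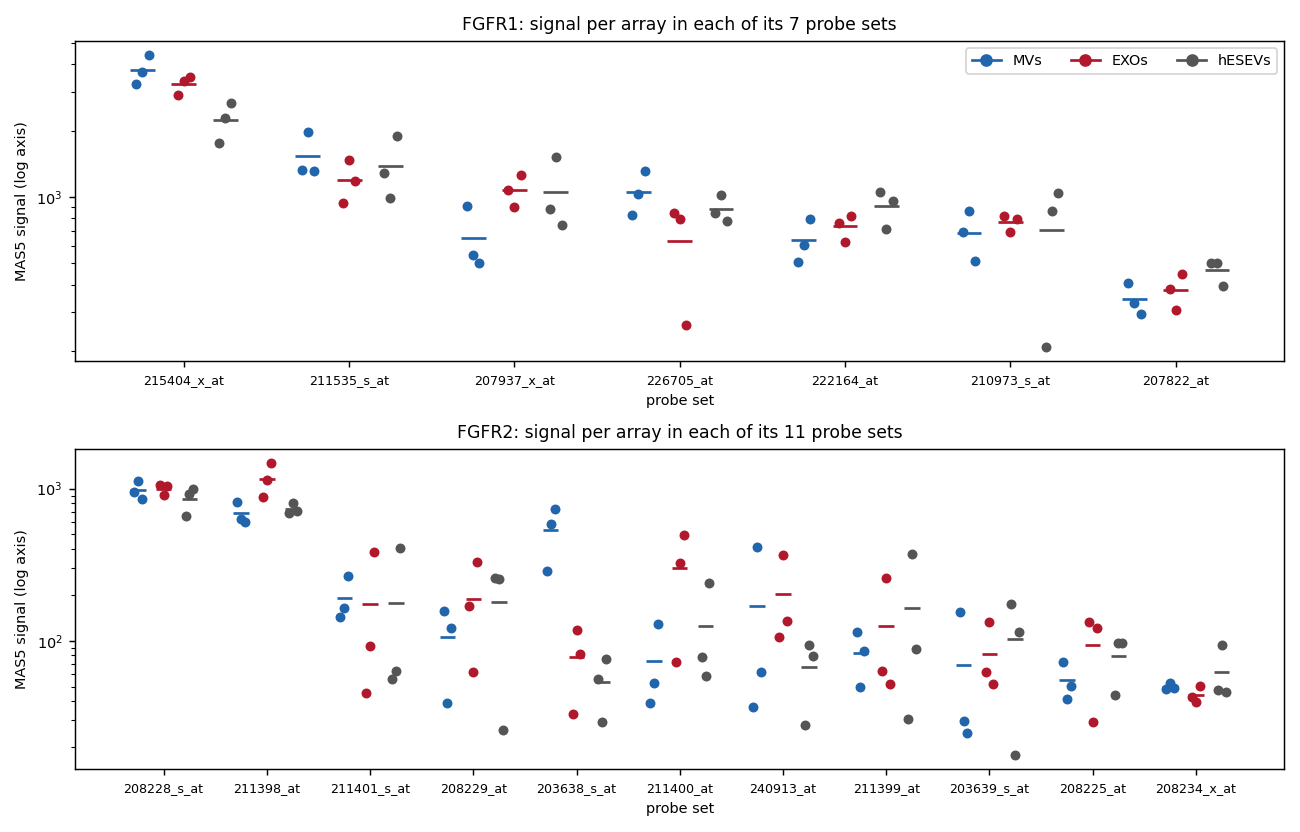
MAS5 signal (log axis) on each array for the 7 probe sets of FGFR1 and the 11 of FGFR2, each with MVs, EXOs and hESEVs from left to right, points for arrays and bars for means of 3 arrays. Only 203638_s_at of FGFR2, with 289 to 729.9 in MVs and 33.0 to 118 in EXOs, passed the test.

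FGFR4 (gene ID 2264) showed the same division. Probe set 204579_at had 906, 748 and 879 in MVs, 179, 96.0 and 51.7 in EXOs, and 265, 134 and 291 in hESEVs. The MVs arrays stood well apart, and hESEVs and EXOs overlapped below them. It was 8.75-fold higher in MVs (844 ± 84.7 against 109 ± 64.8), a log2 fold change of 3.13 with a standard error of 0.55 (adjusted p = 0.0097). The MVs mean lay just above the MVs background level of 841, with MVs replicate 2 under it. It was under the 920.3 used for probe sets of highest mean. The EXOs mean lay far under the EXOs background level of 1109, so that the size of the fold is uncertain. The call was lost without MVs replicate 1 (3.08, adjusted p = 0.057) and without MVs replicate 3 (3.10, adjusted p = 0.054). The other 3 FGFR4 probe sets had differences of -1.06 to 1.30, none past the test (adjusted p = 0.38 to 0.55). In 211237_s_at, MVs replicate 1 alone was high, with 482 against 73.7 and 42.2 in the other MVs arrays.

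FGFR3 (gene ID 2261) had 319, 544 and 349 in MVs, 246, 73.4 and 129 in EXOs, and 101, 576 and 217 in hESEVs with probe set 204379_s_at. MVs lay above EXOs without overlap, hESEVs spread over both, and the log2 difference of 1.57 (interval 0.13 to 3.00) did not pass (adjusted p = 0.15). The methods' t-test without adjustment, with the study's threshold, called it higher in MVs. Its means lay under the background level in all vesicle types. With 204380_s_at the log2 difference was -0.63 (adjusted p = 0.70), and MVs alone ran from 31.2 to 309.8.

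The inhibitors differed in sign, and neither passed the test. SPRY2 (204011_at, gene ID 10253) had 547, 263 and 462 in MVs, 67.8, 31.1 and 356 in EXOs, and 534, 261 and 573 in hESEVs. EXOs replicate 3 lay among the MVs arrays and the other EXOs arrays far below, with 31.1 raised to 32 in the fit. The log2 difference, MVs minus EXOs, was 2.14 (standard error 0.92, adjusted p = 0.18), and without EXOs replicate 3 it was 3.12 and was called (adjusted p = 0.046). SPRY4 (221489_s_at, gene ID 81848) had 900.0, 408 and 605 in MVs, against 1119.9, 906 and 1153 in EXOs and 766, 913 and 973 in hESEVs. EXOs lay above MVs without overlap, by a narrow margin, and the difference of -0.80 did not pass (standard error 0.30, adjusted p = 0.13). The means of SPRY2 ran hESEVs, MVs, EXOs from high to low and those of SPRY4 EXOs, hESEVs, MVs, and neighbours in both orders overlapped.

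**Figure D3:**
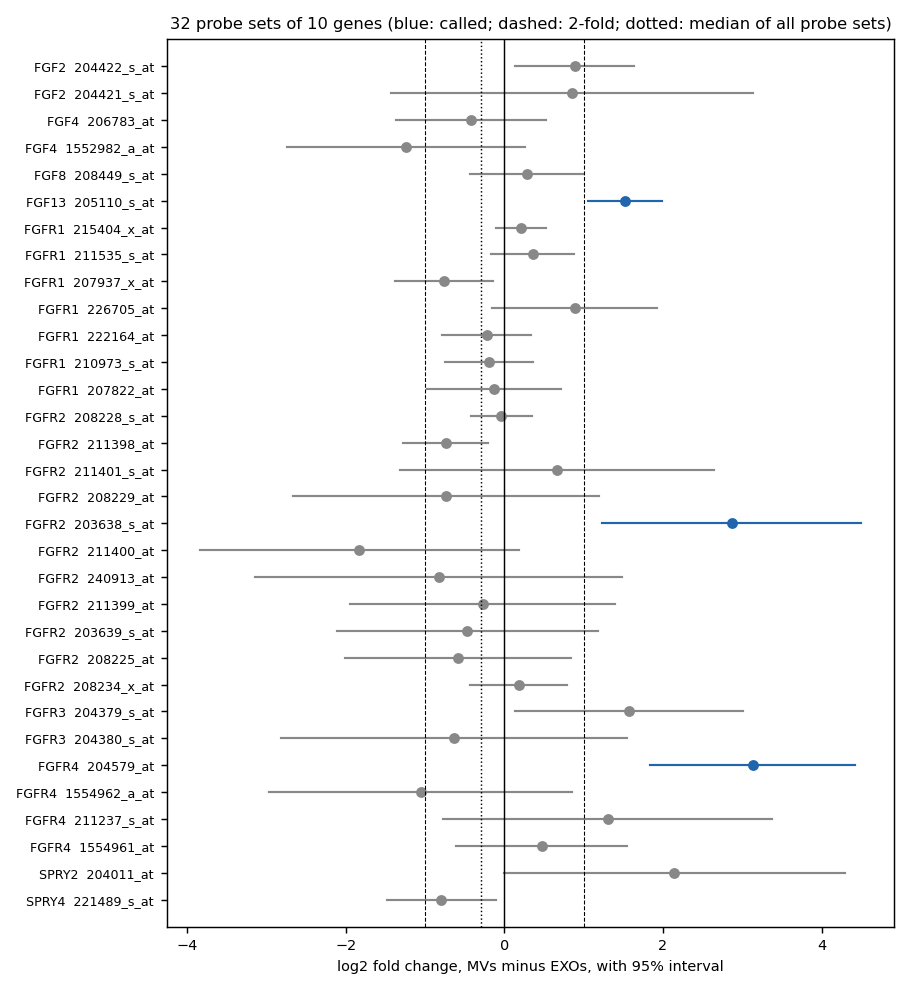
Log2 fold change, MVs minus EXOs, of the 32 probe sets, with 95% intervals from limma (horizontal axis) and genes in the order ligands, receptors, inhibitors. Blue marks the 3 called probe sets, dashed lines 2-fold and the dotted line the median of all probe sets (-0.29). Of the 32 intervals, 8 lie wholly within the dashed lines.

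The precision of these comparisons differed widely between probe sets. The coefficient of variation over the 3 arrays of a group had a median of 34.5% in MVs, 46.1% in EXOs and 34.9% in hESEVs for the FGF probe sets, against 28.5%, 30.0% and 28.6% for all probe sets. Its range in EXOs was 5.37% to 117%. Only 8 of the 32 intervals for MVs minus EXOs lay inside 2-fold in both directions, those of FGF8, of 5 FGFR1 and of 2 FGFR2 probe sets, and for FGF8 the raised low signals narrow the interval. FGFR1 222164_at, 210973_s_at and 207822_at and FGFR2 208234_x_at had means under the background level in all vesicle types. Their intervals thus describe signals not set apart from background, and exclude no 2-fold difference of the transcript. The interval of FGFR1 215404_x_at holds only for the deposited scaling, as quantile normalization gave -1.08, past 2-fold. FGFR2 208228_s_at had an EXOs mean (999) under the EXOs background level of 1109. For the probe sets outside these 8 that did not pass, a 2-fold difference in at least 1 direction is not excluded by the interval.

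MVs were then compared with hESEVs, which hold MVs and EXOs together, in a fit of all 9 arrays. By the labels, hESEVs were not cleared at 2800g as both fractions were, though the sources differ on the hESEVs spins. The hESEVs may thus hold material that neither fraction holds, here and in the comparisons with hESEVs below. FGF13 and the FGFR2 probe set 203638_s_at were higher in MVs, and 30 probe sets did not pass. That is 2 of 32, or 6.25%, where 4.25% of all probe sets were higher in MVs and 1.05% lower (5.30% in either direction). MVs lay above hESEVs without overlap in 4 (12.5%, against 12.1% of all probe sets) and below in 1 (3.13%, against 17.0%). FGF13 was 3.01-fold higher (log2 1.59, standard error 0.26, adjusted p = 0.0030) and FGFR2 9.69-fold (3.28, standard error 0.67, adjusted p = 0.013), where hESEVs replicate 2 of FGFR2, 29.2, had been raised to 32. Both hESEVs means, 491 for FGF13 and 53.5 for FGFR2, lay under the hESEVs background level of 1074, so that the sizes of these folds are uncertain. Without hESEVs replicate 2 that FGFR2 call was lost (2.94, adjusted p = 0.062). FGFR4 204579_at, with a log2 difference of 1.95, missed the threshold (adjusted p = 0.069) although its arrays did not overlap, and was called with median centring (2.16, adjusted p = 0.044). FGFR1 215404_x_at had a log2 difference of 0.77 (adjusted p = 0.017), which is under 2-fold, and this was -0.013 with quantile normalization (adjusted p = 0.98).

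EXOs against hESEVs gave no call among the 32 probe sets, where limma called 0.103% of all probe sets higher and 1.95% lower in EXOs (2.05% in either direction). EXOs lay above hESEVs without overlap in 4 of the 32 and below in 0, against 8.10% and 8.70% of all probe sets. These 3 comparisons share arrays. Without adjustment, 3 had a p under 0.05: SPRY2 (-2.23, unadjusted p = 0.021 from limma), FGFR2 211398_at (0.63) and FGFR1 215404_x_at (0.56). The share of all probe sets under that p was not counted, so the 3 are not read as a result. In SPRY2 the EXOs values of 67.8 and 31.1 lay under all hESEVs values and the EXOs value of 356 among them. Without EXOs replicate 3 the SPRY2 difference was -3.21 and was called. FGFR1 215404_x_at was called higher in EXOs only with quantile normalization (1.05). The methods' t-test without adjustment called 0 in both directions, where it called 660 higher and 1667 lower of all 54613 probe sets.

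The mean of hESEVs lay between those of MVs and EXOs for 15 of the 32 probe sets, against 49.4% of all probe sets. For FGFR1 215404_x_at it lay under both, with all 3 hESEVs arrays (1767 to 2665) below every MVs and EXOs array. For FGF4 206783_at it lay above both.

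**Figure D4:**
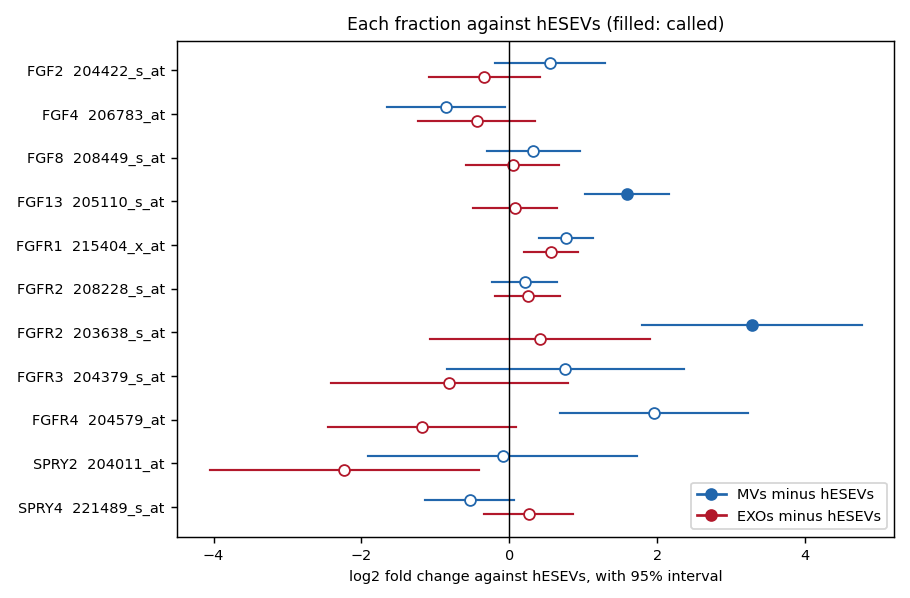
Log2 fold change of MVs (blue) and of EXOs (red) against hESEVs, with 95% intervals, for 1 probe set per gene and the FGFR2 probe set that was called. Filled points passed the test, which are FGF13 (1.59) and FGFR2 203638_s_at (3.28) in MVs. Both intervals of FGFR1 215404_x_at lie above 0.

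The other genes of the pathway were followed in MVs and EXOs with 1 probe set for each gene, that of highest mean. Of 84 measured, 6 were higher in MVs and 3 lower, and 75 did not pass. Of all 19775 genes 11.6% were higher and 2.77% lower, and the medians were -0.12 for the pathway and -0.23 for all genes. In MVs 21 of the 84 lay above the background level for genes so chosen (920.3). Of all 19775 genes 4554 did, a similar share, with probe sets chosen over 9 arrays. In EXOs 6 of the 84 lay above the EXOs level (1329), and the share over all genes was not counted there. All 6 genes higher in MVs had EXOs means under that level, so that the sizes of their folds are uncertain. The 3 genes lower in MVs had means under the level in both MVs and EXOs, EGR1 in EXOs narrowly (1325.9). Their folds are uncertain too.

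Of 18 other FGF ligands, 0 were higher in MVs, 1 was lower and 17 did not pass (median -0.56). FGF22, the gene that was lower, had 102, 48.7 and 49.1 in MVs against 303, 150.4 and 593 in EXOs (-2.26, adjusted p = 0.046), all under the background level, and this call was lost in 13 of 15 alternatives. FGF7, a growth factor for epithelia, had 2186, 2055 and 2105 in MVs and 4592, 3346 and 3507 in EXOs, without overlap, a difference of -0.84 (adjusted p = 0.0029), which is under 2-fold. With quantile normalization it was -1.94 and was called lower in MVs (adjusted p = 0.00014).

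Of 15 coreceptors and FGF-binding proteins, 2 were higher in MVs and 13 did not pass (median 0.13). FGFBP3, a secreted carrier that binds FGFs, had 1987, 2365 and 2762 in MVs, against 483, 522 and 554 in EXOs. It was 4.53-fold higher in MVs (2.18, standard error 0.17, adjusted p = 4.0e-05). GPC4, a glypican that carries heparan sulfate, was 2.08-fold higher in MVs (1299.8 ± 143 against 631 ± 115, adjusted p = 0.0079), a fold that fell under 2 without MVs replicate 1 (0.99) or EXOs replicate 2 (0.91). KLB, a coreceptor for endocrine FGFs, had 798 ± 248 in MVs and 1491 ± 121 in EXOs (-0.94, adjusted p = 0.021), under 2-fold, and was called lower in MVs with quantile normalization (-1.14) and without MVs replicate 1 (-1.18). Of 12 genes of heparan sulfate synthesis and editing, none passed (0 of 12, median 0.05), and the one with the smallest p was the sulfatase SULF1 (-0.57, adjusted p = 0.053 from limma).

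Of 12 adaptors and proximal effectors listed, 10 had a probe set assigned to that gene alone, and FRS2 was not among these. Of the 10, 2 were higher in MVs and 8 did not pass (median 0.25). The adaptor SHC1 had 3895, 4088 and 3476 in MVs, against 1023, 1382 and 1359 in EXOs (1.62, standard error 0.15, adjusted p = 9.3e-05). Averaging its probe sets brought this to 0.86, which did not pass. The phosphatase PTPN11 had 1649, 2434 and 2416 in MVs, against 786, 638 and 760.4 in EXOs (1.56, adjusted p = 0.00067). Its probe sets disagreed: their average gave -0.26, and without MVs replicate 3 another of them had the highest mean and gave -0.43, neither past the test. CBL, a ubiquitin ligase that acts on activated receptors, was 1038 ± 168 in MVs and 1778 ± 271 in EXOs (-0.78, adjusted p = 0.017), under 2-fold, and was called lower in MVs with quantile normalization (-1.19).

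In the RAS and MAP kinase cascade, only 8 of the 13 genes listed had a probe set assigned to that gene alone. Of the 8, 1 was higher in MVs and 7 did not pass (median 0.48). MAP2K2, the kinase MEK2, had 1629.8, 2015 and 1581 in MVs, against 46.5, 197 and 56.5 in EXOs. At 21.6-fold (4.43, standard error 0.58, adjusted p = 0.00093) its chosen probe set had the largest difference among those of the 84 genes, with an EXOs signal far under the background level. The average of its probe sets gave 1.81, which was called (adjusted p = 0.026) and lay below the 2.87 of FOSL1. HRAS had 827, 1087 and 586 in MVs and 23.8, 259 and 232 in EXOs, without overlap, and missed the threshold (2.70, adjusted p = 0.0503). It was called in 7 of 15 alternatives, with differences of 1.72 to 3.23: both other scalings, both other floors, the fit on all 9 arrays, and without EXOs replicate 1 or 2.

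Of 10 further feedback inhibitors, 1 was lower in MVs and 9 did not pass (median -0.28). SPRED3, a relative of the Sprouty proteins, had 671, 590.4 and 401 in MVs, against 1216, 1208 and 977 in EXOs (-1.06, adjusted p = 0.019), with both means under the background level for genes so chosen. DUSP6, a phosphatase for ERK, had 1205 ± 58.0 in MVs and 763 ± 158 in EXOs (0.68, adjusted p = 0.048), under 2-fold. Of 11 transcription targets, 1 was higher in MVs, 1 was lower and 9 did not pass (median 0.34). FOSL1, a partner of JUN, had 617, 687 and 606 in MVs, against 97.6, 124 and 54.7 in EXOs (2.87, adjusted p = 0.0051), all under the background level. EGR1, an immediate early factor, had 543, 664 and 700.5 in MVs, against 1511, 1022 and 1444 in EXOs (-1.05, adjusted p = 0.011), with both means under the background level. MYC had 769 ± 283 in MVs and 343 ± 86.9 in EXOs (1.14, adjusted p = 0.066), and was called with quantile normalization (1.29) and with median centring (1.38). With median centring the calls of FGF22, SPRED3 and EGR1 as lower in MVs were lost (-2.03, -0.82 and -0.81). The SPRED3 call was also lost without MVs replicate 3 or without EXOs replicate 1 or 2 (-0.84, -1.004 and -1.009), and that of EGR1 without MVs replicate 1 or without EXOs replicate 1 or 3 (-0.94, -0.24 and -0.53), and with averaged probe sets (-0.55).

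**Figure D5:**
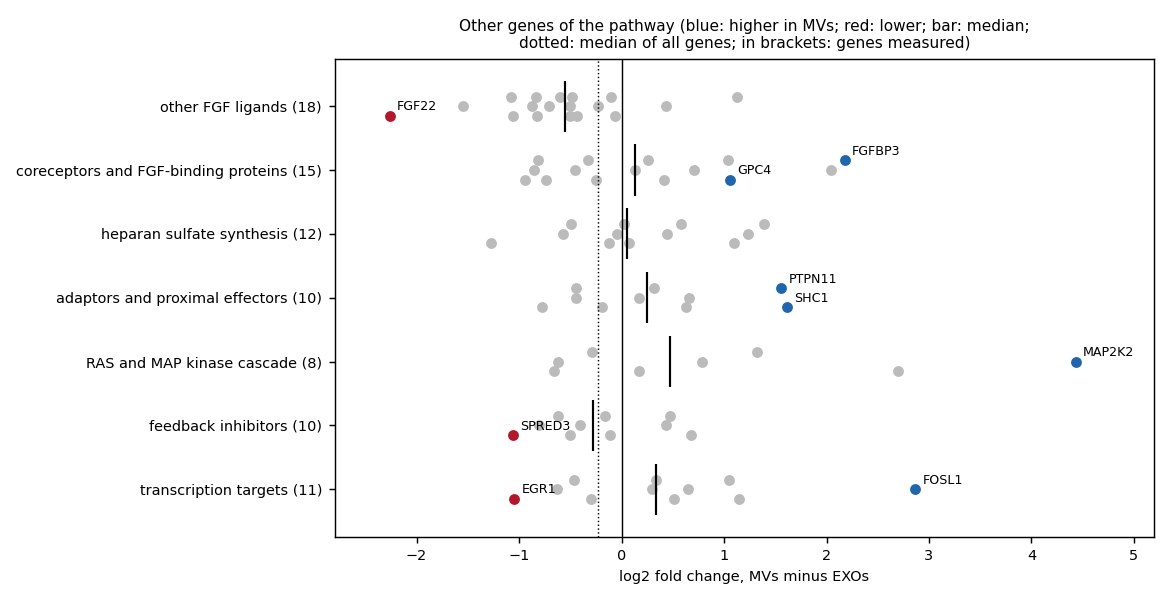
Log2 fold change, MVs minus EXOs (horizontal axis), of 84 other genes of the pathway by list, with 1 point per gene, bars for list medians and a dotted line for the median of all genes (-0.23). The 6 genes higher in MVs are blue, with MAP2K2 at 4.43 farthest from 0, and the 3 lower are red.

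The profiles over the 9 arrays most like those of FGF2 and FGFR1 were sought among 4554 and 4553 genes above the background level in MVs, by the root mean square difference of log2 signals centred on their own mean. Those nearest to FGF2 204422_s_at were RASGRP2, RAMAC, RRP36, PUDP and SRP68, at 0.20 to 0.24. Those nearest to FGFR1 215404_x_at were KLHL24, FASTKD5, ZSCAN2, FAM222B and ZNF611, at 0.12 to 0.16. This likeness is a description over 9 arrays of 3 vesicle types. The means of FGF2 204422_s_at lay under the background level in all vesicle types, so its likeness is that of a signal not set apart from background.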

How the data were processed

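Vesicle RNA was hybridized to 9 arrays, 3 each for MVs, EXOs and hESEVs. The authors deposited 1 MAS5 signal intensity per probe set and array, on a linear scale and scaled to a common target. The MAS5 version is not given in the sources used here, and the RMA normalization named in the paper is not part of these values. The 62 control probe sets were left out, which left 54613. The annotation gave 1 gene for 41091 of these, several for 1801 and no gene for 11721. Gene IDs of 41037 were found in the RefSeq table of GRCh38.p14, used for names only.

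Signals under 32 (3.38% to 5.49% of an array) were raised to 32 and log2 was taken. limma 3.58.1 in R 4.3.3 (lmFit, eBayes with a trend, two-sided) was fitted over all probe sets, on 6 arrays for MVs against EXOs and on all 9 for comparisons with hESEVs. Calls needed a Benjamini-Hochberg adjusted p under 0.05 and 2-fold. The study's threshold is the same fold and an unadjusted p. The paper describes the 3 samples per group as biological replicates of 1 cell line, and the p-values measure the spread between these. No 2 arrays were duplicates: Pearson's r within a group was 0.765 to 0.827. Precision is limited by the number of arrays.

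Named were the probe set of highest mean of each gene and every other one called, and from each pathway list up to 3 called genes with the smallest p and the 1 not called with the smallest p. The 5 genes most like FGF2 and FGFR1 were named too. The members and lists were chosen with earlier results of these data known. Alternatives were 2 other scalings, 2 other floors, a filter on low signals, a replicate block, no trend, a fit on other arrays, the methods' t-test with and without adjustment, other ways to join the probe sets of a gene, and each array left out. The procedure was tested on simulated data. Figures were drawn with matplotlib 3.10.9.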

Additional observations from a re-analysis of the deposited data

How the results depend on the processing

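Of the 3 calls in MVs against EXOs, FGF13 was kept in all alternatives run. The count of 3 higher was 1 with a filter on low signals (14 of the 32 left), with the adjusted t-test of the methods and with probe sets averaged per gene, and 1 to 3 with an array left out (1 without MVs replicate 1 or 3). The count of 0 lower was 1 with quantile normalization (FGFR1 215404_x_at, -1.08) and 0 to 1 with an array left out. The count of 2 higher in MVs than in hESEVs was 1 with the filter, 0 with the adjusted t-test, 1 with averaged probe sets and 1 to 3 with an array left out. That count was 3 with median centring, a floor of 100, a fit on only the groups compared and the unadjusted t-test. For EXOs against hESEVs, the count higher was 1 with quantile normalization and the count lower 0 to 1 with an array left out. In the pathway lists, the count of 3 lower in MVs was 5 with quantile normalization, 0 with median centring, 1 with averaged probe sets, 1 without shared probe sets and 0 to 2 with an array left out (0 without EXOs replicate 1). The count of 6 higher in MVs was 9 with quantile normalization, 9 with median centring, 8 with a floor of 1, 4 with the filter, 4 with averaged probe sets and 5 to 8 with an array left out. For FGF8, whose signals lie mostly under 32 and carry no direction, the value was under 0 with a floor of 1 (-0.15) and without MVs replicate 2 (-0.0425, in a range with an array left out of -0.0425 to 0.44). Signs turned for FGFR2 208228_s_at with median centring (0.19) and without MVs replicate 3 (0.055, in a range of -0.147 to 0.055) and for PTPN11 with averaged probe sets (-0.26) and without MVs replicate 3 (-0.43, in a range of -0.43 to 1.74). The cause was not tested. With the replicate number as a block, the count in MVs against EXOs was again 3 higher, and the FGF22 call was lost (-2.26, adjusted p = 0.069). Same-numbered arrays did not deviate together (r from -0.01 to 0.01). Median centring moved the median of all probe sets from -0.29 to -0.06. Over all probe sets, 3949 were higher and 1078 lower in MVs than in EXOs as deposited, 3777 and 1498 with quantile normalization, 4765 and 336 with median centring, 3524 and 575 with the block, 4692 and 2650 with the unadjusted t-test of the methods, and 2644 and 445 with the adjusted one.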
